A study of Homo sapiens with 6 samples.

Results

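The TNF superfamily was described here as the protein-coding genes whose symbol is TNFSF or TNFRSF followed by digits, together with TNF, LTA, LTB, LTBR, CD40 and NGFR. The rule took 39 genes of the 61731 genes and loci in the table, 15 ligands and 24 receptors, and a further 4 loci with such symbols were not protein-coding and were left out. The cells were U87-MG, an established human glioblastoma line, and the question was how their transcripts differed between cells infected with CHRM3 knockdown lentivirus (KD, genotype label "CHRM Knockdown") and control cells (NC, "Normal control"), with 3 libraries of total RNA each. No further treatment, time or agent is given in the labels, which leave unsaid if the 3 samples in each group are separate cultures and which of the study's 3 knockdown sequences the KD cells carried. The 3 KD libraries are called replicates here by the numbers in their titles, but whether they carry 1 sequence or a different one each cannot be told from the labels, so their SDs may hold differences between sequences, and p-values measure the spread between these libraries, which may be technical.

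Ligands of this superfamily are mostly trimeric type II membrane proteins that can be cleaved into soluble cytokines, and their receptors carry cysteine-rich repeats outside the cell. Death domain receptors recruit TRADD or FADD and can start caspase-driven cell death, receptors without a death domain bind TRAF adaptors that lead to NF-kB and JNK signalling, and decoy receptors bind ligand without passing on a complete signal. In glioma the superfamily is known above all for TRAIL and its death receptors and for the TWEAK receptor Fn14.

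CHRM3 itself, at 0.02, 0.09 and 0.13 TPM in NC replicates 1 to 3 and 0.13, 0.01 and 0.02 TPM in KD replicates 1 to 3, was too low to check the labels, so KD below means the libraries so labelled. The paper reports efficient CHRM3 knockdown in U87-MG cells, measured apart from the sequencing, without stating which sequence the sequenced cells carried. Of the 10 glioma markers examined, 6 reached a mean of 1 TPM. In NC these were VIM (6574.0 TPM), CD44 (597.3), CHI3L1 (32.5), EGFR (24), NES (2.25) and GFAP (1.16). PDGFRA, OLIG2 and S100B averaged 0.677, 0.417 and 0.123 TPM in NC, and SOX2 did not pass 0.09 TPM in any library. Of the 10 leukocyte markers, 8 stayed under a mean of 1 TPM, with CD3E and TYROBP among those listed at 0 in every library. Their summed level was 8.63 to 9.19 TPM in NC and 12.3 to 13.5 TPM in KD, a difference carried mainly by CSF1R (5.44 against 9.17 TPM), and its part in the results was not tested. The values are TPM, a share of each library corrected for transcript length that keeps no read depth, so no counting error or detection limit can be given. In bulk RNA, fewer cells expressing a gene and less of its RNA per cell cannot be told apart.

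Of the 39 members, 14 averaged 1 TPM or more across the 6 libraries and were tested, all of them above 1 TPM in both groups, and 25 were below that limit. With limma on log2(TPM + 1) and Benjamini-Hochberg adjustment over all 13722 genes tested, 8 of the 14 fell in KD at an adjusted p under 0.05 (57.1%), where 24.0% of all genes tested did. A further 4 rose (28.6%), against 12.1% of all genes tested. The members that fell were TNFSF9, CD40, TNFRSF14, TNFRSF1B, TNFRSF10B, TNFRSF10D, LTBR and TNFRSF1A, and those that rose were TNFRSF9, TNFRSF21, TNFRSF19 and TNFRSF12A. Only TNFSF9 and TNFRSF9 also passed an absolute log2 fold change of 1, a limit passed together with the adjusted p by 1.87% of all genes tested. TNFSF9 fell short of it, at -0.96 each, with median-of-ratios scaling, with quantile normalization and without KD replicate 1. The 3 KD values lay entirely below or above the 3 NC values for 13 of the 14 members, which was so for 50.2% of all genes tested. The median log2 fold change was -0.31 over the 14 members and -0.06 over all genes tested, and after median-of-ratios scaling the share of all calls that were lower was 49.4% in place of 66.5%, with 7 members lower and 4 higher.

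**Figure D1:**
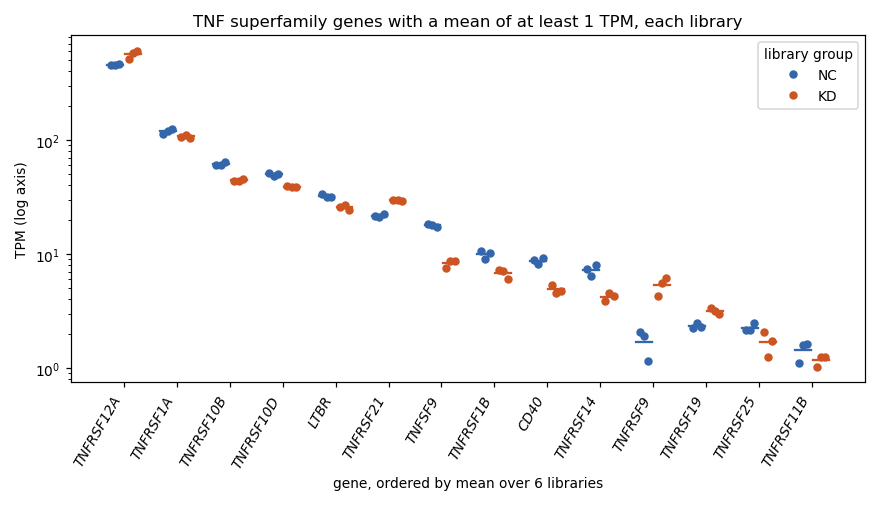
TPM of the 14 tested TNF superfamily genes on a log axis, with 1 point for each NC (blue) and KD (orange) library and a line at each group's mean. Levels run from TNFRSF12A at 459.1 TPM in NC to TNFRSF11B at 1.45 TPM, and the 3 points of each group lie apart from the other group's in every gene but TNFRSF11B.

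In control cells the TWEAK receptor TNFRSF12A was the most abundant member, at 58.3% to 59.2% of the summed receptor TPM. TNFRSF1A, TNFRSF10B, TNFRSF10D, LTBR, TNFRSF21, TNFSF9 and TNFRSF1B followed in that order, each with NC values above those of the next. Neighbours whose NC ranges overlapped were TNFRSF1B and CD40, TNFRSF19 and TNFRSF25, and TNFRSF9 and TNFRSF11B. In KD the order changed at 2 places, with TNFRSF21 above LTBR and TNFRSF9 between TNFRSF1B and CD40, although the KD ranges of TNFRSF9 overlapped those of both. The summed TPM of the 15 ligands was far smaller than that of the receptors, at 20.8 ± 0.25 TPM in NC and 10.9 ± 0.289 TPM in KD (SD, n = 3 each) against 780.3 ± 11 and 843.7 ± 46.1 TPM. TNFSF9 alone held a mean of 17.9 TPM of the ligand sum in NC and 8.29 TPM in KD. The receptor sums overlapped, with 793.0 TPM in NC replicate 3 and 791.3 TPM in KD replicate 1. TNFRSF12A alone rose from a mean of 459.1 TPM in NC to 568.3 TPM in KD.

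**Figure D2:**
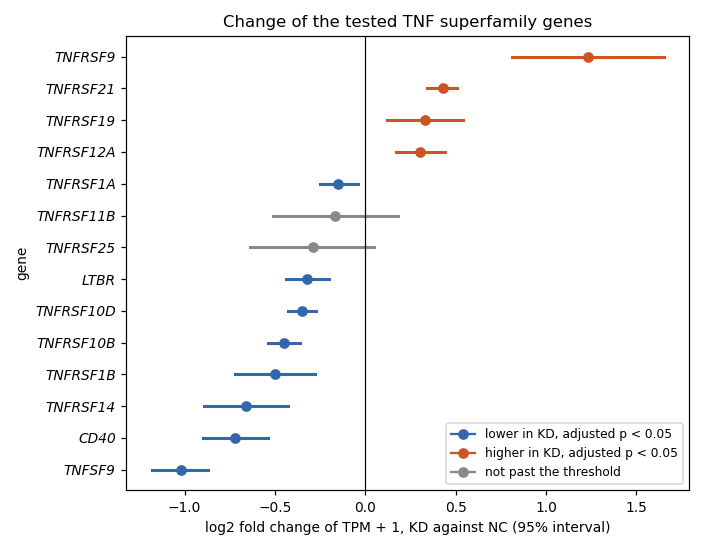
Log2 fold change of TPM + 1 between KD and NC for the 14 tested genes, with 95% intervals from limma, blue where lower and orange where higher at an adjusted p under 0.05, grey otherwise. TNFSF9 lies lowest at -1.02 and TNFRSF9 highest at 1.23, while the intervals of TNFRSF25 and TNFRSF11B include 0.

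The receptor TNFRSF9 (4-1BB, also CD137) and its ligand TNFSF9 (4-1BB ligand) moved in opposite directions. TNFSF9, known as a costimulator of T cells, was the only ligand that reached the limit for testing. Its gene (ENSG00000125657) lies on chromosome 19 from 6530999 to 6535928 (GRCh38), and its level was 18.24, 17.89 and 17.45 TPM in NC replicates 1 to 3 and 7.51, 8.63 and 8.73 TPM in KD replicates 1 to 3. Every KD library held less than 9 TPM and every NC library more than 17 TPM. The log2 fold change was -1.02 (standard error, SE, 0.0648, adjusted p = 9.76e-05 in limma). TNFRSF9 (ENSG00000049249), on chromosome 1 from 7915894 to 7943165, is a receptor that activated T cells display and that signals through TRAF1 and TRAF2. It was 2.06, 1.90 and 1.16 TPM in NC and 4.30, 5.56 and 6.14 TPM in KD, again without overlap. The log2 fold change was 1.23 (SE 0.176, adjusted p = 0.0025 in limma). The ratio of ligand to receptor within a library, chosen after the values were seen, was 8.85, 9.42 and 15 in NC and 1.75, 1.55 and 1.42 in KD. This was the only one of the 28 listed pairs of ligand and receptor in which both genes had a mean of at least 1 TPM.

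**Figure D3:**
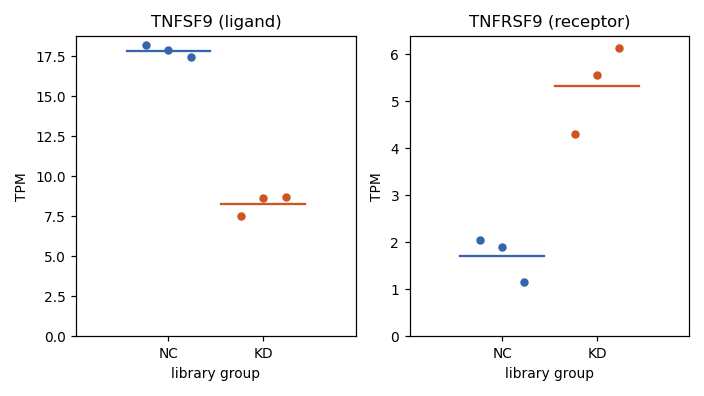
TPM of TNFSF9 (left) and TNFRSF9 (right) in each of the 3 NC and 3 KD libraries, on axes that start at 0, with a line at the group mean. The ligand fell from a mean of 17.9 to 8.29 TPM while the receptor rose from 1.71 to 5.33 TPM.

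The promoters of this pair are shown because the genes moved apart, with those of TNFRSF8 and TNFSF14, which are described further on. Each stretch holds 250 bases before and 50 after the start site in RefSeq (GRCh38.p14), written 5′ to 3′ on the strand of the gene, with capitals for matches to an NF-kB motif (GGGNNNTTCC) or an AP-1 motif (TGANTCA) on either strand. They lie at chr19:6530776-6531075 (plus strand) for TNFSF9, chr1:7940790-7941089 (minus strand) for TNFRSF9, chr1:12063053-12063352 (plus strand) for TNFRSF8 and, for the upstream of its listed starts, chr19:6670111-6670410 (minus strand) for TNFSF14.
TNFSF9: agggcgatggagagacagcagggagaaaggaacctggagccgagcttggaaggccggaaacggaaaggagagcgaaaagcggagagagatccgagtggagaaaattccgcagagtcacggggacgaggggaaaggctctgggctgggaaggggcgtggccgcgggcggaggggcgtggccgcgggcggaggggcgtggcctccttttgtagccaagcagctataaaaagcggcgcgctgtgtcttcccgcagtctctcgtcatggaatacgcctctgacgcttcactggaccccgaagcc
TNFRSF9: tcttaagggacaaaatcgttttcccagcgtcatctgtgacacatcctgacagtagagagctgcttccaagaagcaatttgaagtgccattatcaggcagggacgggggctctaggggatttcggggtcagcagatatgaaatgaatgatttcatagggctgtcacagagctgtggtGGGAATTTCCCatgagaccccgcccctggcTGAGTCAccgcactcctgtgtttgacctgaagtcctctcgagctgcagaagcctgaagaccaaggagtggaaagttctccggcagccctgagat
TNFRSF8: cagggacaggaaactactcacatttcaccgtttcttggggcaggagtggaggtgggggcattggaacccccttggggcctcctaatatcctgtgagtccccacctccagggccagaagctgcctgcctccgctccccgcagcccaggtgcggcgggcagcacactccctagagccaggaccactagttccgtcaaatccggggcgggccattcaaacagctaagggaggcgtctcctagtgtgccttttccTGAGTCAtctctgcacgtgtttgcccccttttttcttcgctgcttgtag
TNFSF14: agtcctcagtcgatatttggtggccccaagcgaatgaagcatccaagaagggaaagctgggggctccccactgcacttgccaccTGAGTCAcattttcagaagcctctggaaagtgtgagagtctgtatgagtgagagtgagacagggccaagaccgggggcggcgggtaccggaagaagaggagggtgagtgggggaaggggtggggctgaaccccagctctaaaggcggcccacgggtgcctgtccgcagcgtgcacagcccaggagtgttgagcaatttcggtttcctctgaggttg
The TNFRSF9 promoter held the NF-kB letters on both strands in overlapping matches that begin at positions -74 and -73 from the start site, and an AP-1 match at -44. The same windows held the NF-kB letters in 6.52% and the AP-1 letters in 7.71% of 35116 RefSeq promoters. No match to either motif, or to the cyclic AMP response element TGACGTCA (1.85% of promoters), was in the TNFSF9 window. Of the 9 tested members with a promoter examined, TNFRSF9 was the only one with an NF-kB or an AP-1 match. AP-1 letters stood at 1 in the TNFRSF8 window and at -166 in that of TNFSF14. Matches also stood in windows of other members under a mean of 1 TPM, none of them called. These were NF-kB letters for LTA, LTB and TNFSF13 and AP-1 letters for TNFSF15. A match of letters is a description and shows no binding.

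Of the TNF receptors, TNFRSF1B was lower in KD in each fit run, while the call of TNFRSF1A depended on the scaling and on single libraries. TNFRSF1A (TNFR1, ENSG00000067182), on chromosome 12 from 6328757 to 6342114, carries the death domain that recruits TRADD. Its level was 112.52, 120.53 and 124.29 TPM in NC and 107.23, 111.59 and 103.73 TPM in KD, so that the lowest NC library stood just above the highest KD library. The log2 fold change was -0.15 (SE 0.0453, adjusted p = 0.0464 in limma). That call was lost in 10 of the 15 alternative fits, where the limma adjusted p was 0.0637 to 0.317, and the log2 fold change moved most with median-of-ratios scaling (-0.08, adjusted p = 0.227) and quantile normalization (-0.06, adjusted p = 0.317). The other losses of the call included those without NC replicate 2 (-0.14) or 3 (-0.11), those without KD replicate 1 (-0.14) or 3 (-0.12), and the replicate block (adjusted p = 0.0791). TNFRSF1B (TNFR2, ENSG00000028137), on chromosome 1 from 12167003 to 12209228, has no death domain and binds TRAF2. It was 10.71, 9.10 and 10.15 TPM in NC and 7.26, 7.13 and 5.99 TPM in KD, with no overlap, a log2 fold change of -0.50 (SE 0.0913) and a limma adjusted p of 0.00693. Within each library TNFRSF1A exceeded TNFRSF1B by 10.5 to 13.2 times in NC and by 14.8 to 17.3 times in KD, a ratio chosen after the values were seen. Their ligand TNF was listed at 0.39, 0.26 and 0.11 TPM in NC and at 0, 0.17 and 0 TPM in KD, and LTA at no more than 0.10 TPM in any library.

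Among the receptors of TRAIL, the signalling receptor and the decoy that were abundant fell together. TNFRSF10B (DR5, ENSG00000120889) carries a death domain and lies on chromosome 8 from 23020133 to 23069179. It was 59.86, 59.98 and 63.80 TPM in NC and 44.04, 43.77 and 45.81 TPM in KD, with a log2 fold change of -0.45 (SE 0.0374, adjusted p = 0.00029 in limma). TNFRSF10D (DcR2, ENSG00000173530), a decoy with a shortened death domain on the same chromosome from 23135588 to 23164030, was 51.28, 48.56 and 50.62 TPM in NC and 39.45, 39.14 and 38.79 TPM in KD. Its log2 fold change was -0.35 (SE 0.0321, adjusted p = 0.000416 in limma). For both genes every KD library lay below every NC library. The other death receptor, TNFRSF10A (DR4), was 0.15 to 0.41 TPM in NC and 0.02 to 0.21 TPM in KD, and the other decoy, TNFRSF10C (DcR1), was 0.26 to 0.38 TPM in NC and 0 to 0.19 TPM in KD. The TNFRSF10 genes are similar in sequence, so reads could be divided between them, and TNFRSF10B overlaps RHOBTB2 on the opposite strand (9.67 TPM in NC, 7.77 TPM in KD). The balance, taken as the summed TPM of TNFRSF10A and TNFRSF10B over that of TNFRSF10C and TNFRSF10D, was 1.17, 1.23 and 1.25 in NC and 1.12, 1.12 and 1.18 in KD. The groups overlapped and the log2 difference was -0.10 (exact two-sided permutation test, p = 0.20, where 3 against 3 allow no p below 0.10). The ligand TRAIL (TNFSF10) was 0.62, 0.10 and 0.20 TPM in NC and 0.09, 0.03 and 0.22 TPM in KD, which overlap. Osteoprotegerin (TNFRSF11B), a secreted decoy for RANKL and TRAIL, was 1.11, 1.61 and 1.62 TPM in NC and 1.03, 1.24 and 1.24 TPM in KD, with a log2 fold change of -0.17, a 95% interval of -0.51 to 0.18 and a limma adjusted p of 0.405.

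LTBR and TNFRSF14, which bind lymphotoxins and LIGHT, were lower. LTBR (ENSG00000111321), the lymphotoxin beta receptor, lies on chromosome 12 from 6375045 to 6391571 and signals to NF-kB through TRAF2 and TRAF3. It was 33.87, 31.46 and 31.54 TPM in NC and 25.75, 26.76 and 24.55 TPM in KD, with a log2 fold change of -0.32 (SE 0.0483, adjusted p = 0.00315 in limma). TNFRSF14 (HVEM, ENSG00000157873), on chromosome 1 from 2555639 to 2565382, also binds the inhibitory receptor BTLA. It was 7.42, 6.42 and 8.03 TPM in NC and 3.86, 4.53 and 4.30 TPM in KD, with a log2 fold change of -0.66 (SE 0.0964, adjusted p = 0.0027 in limma). Neither gene's groups overlapped. TNFRSF14 overlaps the antisense gene TNFRSF14-AS1, at 0.283 TPM in NC and 0.123 TPM in KD, and the strand used in the counting is not stated.

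Their shared ligand LIGHT (TNFSF14), whose promoter is printed above, was low throughout, at 0.33, 0.31 and 0.43 TPM in NC and 0.04, 0.07 and 0.01 TPM in KD. The KD libraries all lay below the NC libraries. LTB, a subunit of the ligand of LTBR, was listed at 0.10 TPM in NC replicate 1 and at 0 in the other 5 libraries.

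CD40 (ENSG00000101017), on chromosome 20 from 46118272 to 46129863, is best known on B cells and antigen-presenting cells. It was 8.81, 8.22 and 9.15 TPM in NC and 5.34, 4.6 and 4.74 TPM in KD, so that all KD values were below all NC values. Its log2 fold change of -0.72 (SE 0.0748, adjusted p = 0.000677 in limma) was the second largest fall of a tested member.

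Against these falls, the most abundant receptor rose. TNFRSF12A (Fn14, ENSG00000006327), on chromosome 16 from 3018445 to 3022383, is the receptor of TWEAK and is induced by growth factors in many tissues. It was 458.53, 456.53 and 462.31 TPM in NC and 515.62, 582.63 and 606.78 TPM in KD, with a log2 fold change of 0.30 (SE 0.0573, adjusted p = 0.00774 in limma). The KD libraries spread more widely than the NC libraries, with SDs of 47.2 and 2.94 TPM, but all stood above them. TNFRSF12A made up 65.2% to 69.1% of the receptor TPM in KD. TWEAK itself (TNFSF12) was 0.29, 0.17 and 0.20 TPM in NC and 0.95, 1.25 and 0.42 TPM in KD, higher in each KD library than in any NC library. TNFSF12, TNFSF13 and the readthrough gene TNFSF12-TNFSF13 share exons, so their values are uncertain.

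TNFRSF21 (DR6, ENSG00000146072), on chromosome 6 from 47231532 to 47309905, carries a death domain and is expressed in neurons. It rose from 21.70, 21.21 and 22.41 TPM in NC to 29.93, 29.59 and 29.30 TPM in KD, with a log2 fold change of 0.43 (SE 0.036, adjusted p = 0.000305 in limma). Every KD library stood above every NC library, and the SDs were 0.603 and 0.315 TPM. TNFRSF19 (TROY, ENSG00000127863), on chromosome 13 from 23570370 to 23676104, is a receptor without a death domain known in neural progenitors and hair follicles. It was 2.25, 2.48 and 2.27 TPM in NC and 3.39, 3.19 and 3 TPM in KD, with a log2 fold change of 0.33 (SE 0.0887, adjusted p = 0.0285 in limma). The call was lost in 7 of the alternative fits that tested the gene, at limma adjusted p of 0.0503 to 0.101. The fit with the limit of 5 TPM did not test it. These were the replicate block (adjusted p = 0.0795), the fit with no limit on low values (0.101), and the fits without NC replicate 1 (0.0831), 2 (0.0503) or 3 (0.0764) or without KD replicate 1 (0.0867) or 2 (0.0753). TNFRSF25 (DR3), the death domain receptor of TL1A, was 2.15, 2.14 and 2.48 TPM in NC and 2.06, 1.25 and 1.72 TPM in KD. The difference was not past the threshold (log2 fold change -0.29, 95% interval -0.64 to 0.05, limma adjusted p = 0.162), and the gene overlaps PLEKHG5 on its own strand (3.09 TPM in NC, 4.61 TPM in KD).

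Of the 25 members below the limit, 14 were ligands and 11 were receptors. TNFRSF4 (OX40), TNFRSF18 (GITR) and TNFRSF13B (TACI), receptors of T and B lymphocytes, were listed at 0 in all 6 libraries. Another 15 stayed under 0.5 TPM in every library, among them NGFR, TNFSF11 (RANKL), TNFSF15, TNFSF18, TNFSF4 and TNFSF8, which did not pass 0.10 TPM. The 7 that reached 0.5 TPM in some library were TNFSF13B (BAFF), TNFRSF11A (RANK), TNFSF13 (APRIL), TNFSF12, TNFRSF6B (DcR3), TNFRSF8 (CD30) and TNFSF10. BAFF ranged from 0.55 to 1.24 TPM in NC and from 0.39 to 1.27 TPM in KD, RANK from 0.64 to 1.07 and from 0.56 to 0.78 TPM, and APRIL from 0.47 to 1.12 and from 0.43 to 0.64 TPM, with overlap in each. DcR3, at 0.33 to 0.79 TPM in NC and 0.25 to 0.59 TPM in KD, shares exons with the readthrough gene RTEL1-TNFRSF6B. CD30 (ENSG00000120949), on chromosome 1 from 12063377 to 12144207, is a TRAF-binding receptor of activated lymphocytes, and its promoter is printed above. It was 0.67, 0.84 and 0.72 TPM in NC and 0.08, 0.18 and 0.24 TPM in KD, without overlap. CD30 reached 0.5 TPM in NC alone, and TNFSF12 in KD alone, so being named by that limit favoured a gap.

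With the limit lowered to 0.1 TPM, 11 of these 25 members entered a limma fit of 20229 genes, in which 23.1% were called in either direction, and 2 of the 11 were called. TNFRSF8 had a log2 fold change of -0.58 (SE 0.0979, adjusted p = 0.00735 in limma) and TNFSF14 one of -0.38 (SE 0.0839, adjusted p = 0.0202 in limma). TNFSF14 passed the lower limit through its NC libraries alone, so a fall was bound to follow. TNFSF12 was not past the threshold there (0.59, limma adjusted p = 0.0593), nor was TNF (-0.24, limma adjusted p = 0.216). The table is rounded to 2 decimals, and values this low carry little precision.

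**Figure D4:**
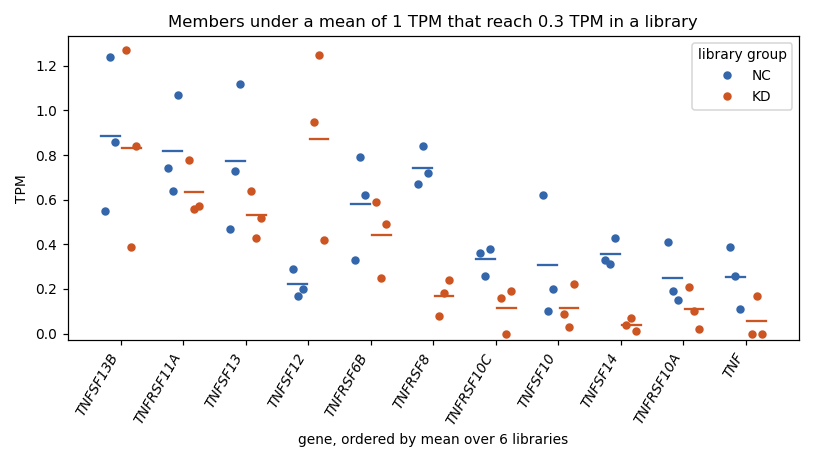
TPM in each NC (blue) and KD (orange) library of the 11 members that have a mean under 1 TPM and reach 0.3 TPM in at least 1 library, with a line at the group mean. The groups lie apart in TNFSF12, which was higher in KD, and in TNFRSF8, TNFRSF10C and TNFSF14, which were lower, and they overlap in the others. Each gene whose groups lie apart reached 0.3 TPM in its higher group only, so the limit for plotting favoured such a gap.

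Superfamily genes whose symbols the rule does not take were examined as a separate list of 9. Of these, 4 reached 1 TPM and all 4 fell in KD, where 24.0% of all genes tested did, with a median log2 fold change of -0.50 beside -0.06 over all genes tested. EDA2R, the receptor of ectodysplasin A2, fell from 8.18 ± 0.0985 to 3.74 ± 0.584 TPM (SD, n = 3 each), a log2 fold change of -0.96 (adjusted p = 0.000701 in limma). The death receptor FAS fell from 29.3 ± 0.866 to 19.5 ± 0.493 TPM, a log2 fold change of -0.56 (adjusted p = 0.000153 in limma). CD70, the ligand of CD27 and at 87.2 ± 3.4 TPM in NC more abundant than any ligand of the rule, was 64.0 ± 0.774 TPM in KD, a log2 fold change of -0.44 (adjusted p = 0.00023 in limma). RELT fell by 0.33 on the log2 scale (limma adjusted p = 0.00876). FASLG, CD27, CD40LG, EDA and EDAR did not pass 0.30 TPM in any library.

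The adaptors and enzymes that act at the receptors were taken as a list of their own, written with earlier results of these data known. Of 23 tested genes on a list of 25, 7 fell and 0 rose by limma at an adjusted p under 0.05. The 30.4% that fell lay near the 24.0% of all genes tested, while 12.1% of all genes tested rose. The median log2 fold change was -0.08 beside -0.06. At an unadjusted p under 0.05, BIRC3, an inhibitor of apoptosis recruited by TRAF2, was higher (1.26 against 1.82 TPM, limma adjusted p = 0.0936). The largest falls were those of the deubiquitinase CYLD (22.8 ± 0.699 to 16.1 ± 1.08 TPM, log2 fold change -0.48, limma adjusted p = 0.00127) and of the ubiquitin-editing enzyme TNFAIP3 (-0.29, limma adjusted p = 0.0223), both of which restrain NF-kB signalling. TRAF2, which serves TNFRSF1B, LTBR, CD40 and TNFRSF9, fell by 0.21 on the log2 scale (limma adjusted p = 0.00837), RIPK1 fell by 0.21 (limma adjusted p = 0.0478) and FADD, the adaptor of the TRAIL death receptors, fell by 0.14 (limma adjusted p = 0.0255). With the limit of 0.1 TPM RIPK1 was not past the threshold (limma adjusted p = 0.0758). TRADD was 24.4 ± 0.569 TPM in NC and 26.9 ± 3.55 TPM in KD (limma adjusted p = 0.325), and TRAF3 and TRAF1 were not past the threshold either. After median-of-ratios scaling 4 genes of this list were lower, as was the case without NC replicate 1, NC replicate 3, KD replicate 1 or KD replicate 2, and without KD replicate 1 a gene (1) was called higher.

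Of the 9 tested genes of the death arm, 2 fell by limma and 0 rose (12.1% of all genes tested), with a median log2 fold change of -0.09 (-0.06 over all genes tested). The share that fell, 22.2%, was no higher than the 24.0% of all genes tested, so the count is no result about this list. MLKL, the executor of necroptosis, fell by 0.24 on the log2 scale (limma adjusted p = 0.019), and CFLAR, which blocks caspase-8 at death receptors, fell by 0.19 (limma adjusted p = 0.0464). RIPK3, the kinase that activates MLKL, was listed at 0 in every library. DIABLO was the only tested gene of this list that was higher at an unadjusted p under 0.05. Neither fall was past the threshold after median-of-ratios scaling, with which 1 gene was called higher. No gene (0) was lower without NC replicate 1 or KD replicate 2, and 1 was without NC replicate 2, NC replicate 3 or KD replicate 3.

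Of the 7 proteases and partners that process the ligands and receptors, 3 fell (42.9%, against 24.0% of all genes tested) and 0 rose by limma (12.1% of all genes tested), and none was higher at an unadjusted p under 0.05. The median log2 fold change was -0.22 beside -0.06 over all genes tested. Only 2 were called lower with median-of-ratios scaling, with quantile normalization or with no limit on low values. The count was also 2 without NC replicate 1, NC replicate 2 or KD replicate 3. SPPL2B, which cleaves the membrane stub of TNF, fell from 18.8 ± 0.227 to 12.6 ± 1.18 TPM (log2 fold change -0.55, limma adjusted p = 0.00134), ADAM17, the TNF convertase, fell from 12.0 ± 1.67 to 9.01 ± 0.508 TPM (-0.37, limma adjusted p = 0.0312) and FURIN fell from 54.1 ± 1.46 to 45.0 ± 3.07 TPM (-0.26, limma adjusted p = 0.011).

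Of 19 tested genes that TNF is known to induce, 12 fell and 2 rose by limma at an adjusted p under 0.05, with a median log2 fold change of -0.42 beside -0.06 over all genes tested. The share that fell was 63.2%, against 24.0% of all genes tested, and the share that rose, 10.5%, was near the 12.1% of all genes tested. This list was written with earlier results of these data known, and the study picked CXCL1 and CXCL8 of it from these libraries. The count is therefore not independent evidence of its direction. The largest falls were those of CSF2 (11.7 ± 1.01 to 1.23 ± 0.29 TPM, log2 fold change -2.51), CXCL8 (-2.06) and LIF (37.8 ± 1.34 to 9.02 ± 0.928 TPM, -1.96), with limma adjusted p of 3.08e-05, 2.6e-07 and 1.37e-05. CCL2, a chemokine for monocytes, rose from 8.51 ± 1.22 to 14.4 ± 1.08 TPM (0.70, limma adjusted p = 0.00298), and PTX3 rose from 14.1 ± 0.195 to 18.4 ± 2.55 TPM (0.35, limma adjusted p = 0.0282). Only 1 of the rises was called without NC replicate 1, 2 or 3 or without KD replicate 1.

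**Figure D5:**
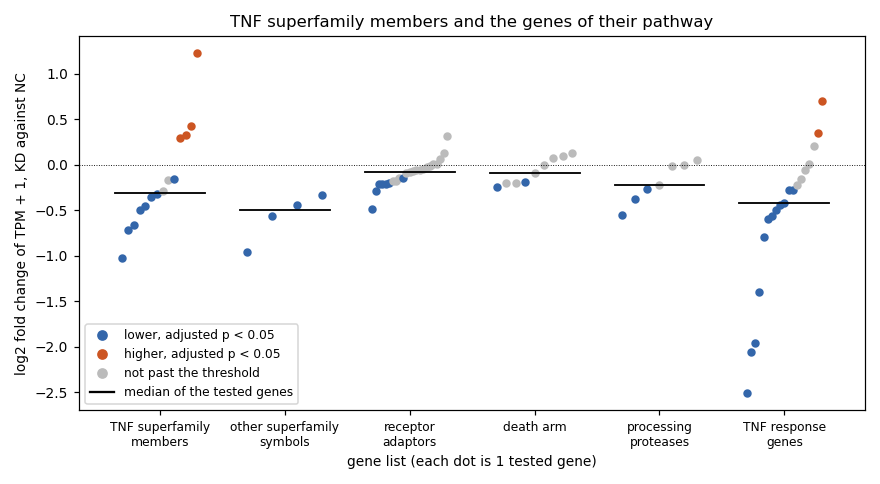
Log2 fold change of TPM + 1 between KD and NC for each tested gene of the TNF superfamily and of the 5 other lists, blue where lower and orange where higher at an adjusted p under 0.05, grey otherwise, with a line at each list's median. The medians are -0.31, -0.50, -0.08, -0.09, -0.22 and -0.42 from left to right, and orange points stand only among the members and the TNF response genes.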

How the data were processed

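Gene expression of U87-MG cells was measured by RNA sequencing in 3 NC and 3 KD libraries, grouped by their titles. The deposited values are TPM for each gene and library, as made by the authors and rounded to 2 decimals, in 1 table of 61731 rows, of which 190 have MSTRG names. The submitters' processing notes name fastp, RSEM and GRCh38.p13, without versions. The annotation and filters are not given in the sources used here. The paper names other library and extraction kits than the labels do. Symbols were taken from a table of gene names (61369 of 61541 Ensembl identifiers matched), and gene types and coordinates from GENCODE 29 (GRCh38). No column was left without a sample (0).

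The test was limma 3.58.1 (R 4.3.3) on log2(TPM + 1), fitted on group alone by lmFit and moderated by eBayes with its trend option, for genes that averaged 1 TPM or more. The pseudocount understates the change of low genes. Benjamini-Hochberg adjustment ran over all genes tested, and genes under 0.05 were called. TPM keeps no depth, so no count model was used. In simulated data with 200 of 13721 genes changed, each by a log2 fold change of at least 1 in size, 82.5% were recovered, with 12 false calls. Smaller changes, such as those of most called members, were not simulated. Nor was a share of changed genes as large as the share called here, so these rates may not hold for the data. Each tested member was named, with its value in every library, as were members below 1 TPM that reached 0.5 TPM, and of the other lists the 3 called genes with the largest changes and direct partners of called members. BIRC3, DIABLO, RIPK3, PTX3, CCL2 and low members such as TNF and TNFSF14 were named after their values were seen. One symbol of the lists (SOD2) had no match in the table. Promoters came from RefSeq tables, in which 25 members had a promoter examined. The members and lists were chosen with earlier results of these data known. Alternatives varied the pseudocount, the limit on low values, the scaling, the trend, the fold change limit, the replicate block, and each library left out in turn.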

Additional observations from a re-analysis of the deposited data

How the results depend on the processing

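Of the 14 tested members, 12 kept their direction and their side of the threshold in each of the 15 alternative fits in which they were tested, and TNFRSF1A and TNFRSF19 kept their direction. The depth of the libraries is unknown, and TPM rounded to 2 decimals limits what can be said of members below 0.1 TPM. Where a log2 fold change of 1 or more in size was also required in the main fit, 1 member was lower and 1 higher. Of all genes, 164 were lower and 92 higher. Of the lists, 4 TNF response genes were lower and 0 higher, with 0 lower among the other superfamily genes, adaptors, death arm and proteases. With a limit of 5 TPM, 2 members were called higher, since TNFRSF9 and TNFRSF19 were no longer tested. With no limit on low values, 1 TNF response gene was higher and 1 death arm gene lower, and with a limit of 0.1 TPM, 1 death arm gene was lower. With median-of-ratios scaling and with quantile normalization, 4 adaptors were lower, and 0 death arm genes were lower and 1 higher. Without the trend, 1 adaptor was higher and 1 death arm gene lower. The cause of these was not tested.

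When each of the 6 libraries was left out in turn, 7 to 8 members were lower and 3 to 4 higher, 4 to 6 adaptors were lower and 0 to 1 higher, 0 to 2 death arm genes were lower, 2 to 3 proteases and 11 to 13 TNF response genes were lower, 1 to 2 TNF response genes were higher, and the log2 difference of the TRAIL receptor balance was -0.13 to -0.08. Same-numbered NC and KD libraries did not deviate together (correlations of -0.02, 0.034 and 0.033 over the genes tested), so the numbers were not taken as pairs. With the replicate block 7 members were lower and 3 higher, against 8 and 4 without it, and 2638 of all genes were lower and 1369 higher, against 3295 and 1660, and not every library correlated best with its own number.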
